A study of Ovis aries with 18 samples.

Results

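A set of 66 genes, among them genes known for their expression in the epididymis, was abundant in the testis mRNA library of 1 ram of 12 months and near 0 in the libraries of 8 other rams. The genes were chosen by their values in these 9 libraries. A gene of type mRNA was kept when it had at least 10 CPM (counts per 1000000 counts on genes of type mRNA) in the library of 12-month ram 1 and at least 50 times the highest CPM of the other 8 libraries, with that highest value set to 0.1 CPM where it was lower. The 66 genes were 0.343% of the 19233 genes of type mRNA in the table. Because every library entered this choice, their levels are described here without a test, and a difference between 12-month ram 1 and any other library is not a result for them.

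The samples were intratesticular tissue of the left testes of Small Tail Han sheep at 2, 6 and 12 months of age. There were 3 different rams of each age, and each ram gave 1 mRNA library and 1 miRNA library, both sequenced on an Ion Proton instrument. Total counts on genes of type mRNA ranged from 8657609 in 12-month ram 1 to 10937143, so that 3 counts corresponded to 0.274 to 0.347 CPM. As each age had only 3 rams and 1 testis per ram was sampled, spread within an age includes spread between animals, dissection and library preparation.

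The epididymis is the coiled duct in which sperm mature after they leave the testis. Its epithelium reabsorbs and acidifies fluid and secretes proteins, protease inhibitors and antimicrobial peptides into the lumen, and some of these proteins are transferred to the sperm surface. The epithelium consists mainly of principal cells, with basal, clear and narrow cells among them, and a layer of smooth muscle surrounds the duct. Epithelium and muscle are joined to the testis through the efferent ducts and rete testis, whereas the seminiferous tubules hold germ cells and Sertoli cells, with Leydig cells between the tubules.

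The labelled ages were compared with the levels of testis cell genes before the set was described. Summed over the 19 of 26 listed spermatid genes in the table (such as TNP1, a transition protein of condensing chromatin, and ODF1, a protein of the sperm tail), the level was 10065, 147 and 817 CPM in the 2-month rams, 11508, 16274 and 11549 CPM in the 6-month rams, and 11473, 11479 and 198 CPM in the 12-month rams. Ram 1 of 2 months and ram 3 of 12 months thus stood apart from the other rams of their ages. In 12-month ram 1 the spermatid sum of 11473 CPM was close to that of 12-month ram 2. It was below the 11508 to 16274 CPM of the 3 rams of 6 months. When the rule was applied without 2-month ram 1 and 12-month ram 3, it kept 72 genes. Leaving out other libraries can only lower the highest other value, so all 66 had to be among them.

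The 6 genes taken as epididymal markers of the set were chosen with earlier results of these data known. That all 6 met the rule is therefore no separate result, and their levels are a description. ADAM7, a membrane protein of the ADAM family that the epididymis makes and passes to sperm, had 735 CPM in 12-month ram 1. Its level was 0.194, 0.104 and 0 CPM in the 2-month rams, 0.0964, 0.0914 and 0.512 CPM in the 6-month rams, and 0.0928 and 0.310 CPM in 12-month rams 2 and 3. ADAM7 was thus at 735 CPM in 1 library and at 5 or fewer counts in every other. AQP9, a water and glycerol channel of the apical membrane of principal cells, had 618 CPM in 12-month ram 1 and between 0 and 0.103 CPM elsewhere, with 1 count in each of 4 libraries and 0 in the other 4. WFDC8, a protease inhibitor with WAP domains, had 312 CPM in 12-month ram 1, 0.371 and 0.103 CPM in 12-month rams 2 and 3, and 0 counts in all 6 younger rams. CRISP1, a cysteine-rich secretory protein that coats sperm in the epididymis, had 147 CPM in 12-month ram 1 and 0 counts in all 8 other libraries. PATE1, a small cysteine-rich protein of the Ly6 type, had 112 CPM in 12-month ram 1, 0.186 CPM in 12-month ram 2, 0.102 CPM in 6-month ram 3 and 0 in the rest. GPX5, a glutathione peroxidase secreted into the epididymal lumen, was the lowest of the markers at 31.6 CPM in 12-month ram 1, with 1 count each in 2-month ram 2 and 12-month ram 3. No library other than that of 12-month ram 1 held over 0.717 CPM of the 6 markers together, against 1955 CPM there.

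The size of the contrast was expressed as the CPM in 12-month ram 1 over the pooled CPM of the other 8 libraries, with a 95% exact interval that covers counting error only. This ratio was 4277 (2547 to 7827) for ADAM7, 5074 (2172 to 15640.0) for WFDC8, 3037 (1036 to 14754) for PATE1 and 1288 (353 to 10691) for GPX5. For AQP9 it was 12570 (4907 to 46152). CRISP1 had no counts in the other libraries and was at least 3981-fold higher in 12-month ram 1, taking 3 counts over the 8 libraries together as the limit. The wide intervals come from the 2 to 14 counts that stand for all 8 other rams. With 1 ram against 8, the smallest one-sided p that an exact permutation test can give is 0.111, and no such test was used for the members.

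**Figure D1:**
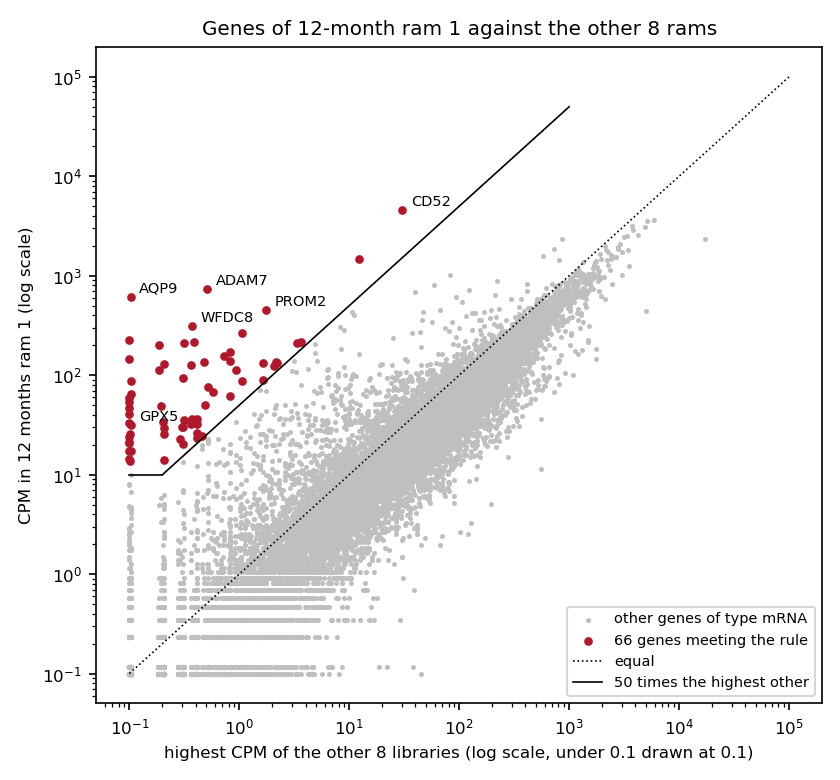
Each point is a gene of type mRNA, with its highest CPM among the other 8 libraries on the x axis and its CPM in 12-month ram 1 on the y axis, both on log scales with values under 0.1 CPM drawn at 0.1. The 66 genes in red lie above the solid line of 50 times the highest other value, from 13.6 CPM up to CD52 at 4573 CPM. Most other genes lie at or below the dotted line of equal levels, as the x axis is the highest of 8 libraries.

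Within 12-month ram 1 the 66 genes ranged from 118 to 39593 counts, which is 13.6 to 4573 CPM with a median of 62.8 CPM, and 26 of them exceeded 100 CPM. Their counts summed to 113040, which was 1.31% of all counts on genes of type mRNA in that library (95% Wilson interval 1.30 to 1.31%). In the other 8 libraries the same genes summed to between 234 and 488 counts, or 23.98 to 50.6 CPM, against 13057 CPM. CD52 and LOC101111569 made up much of both sums, and without them the sums were 7014 CPM in 12-month ram 1 and 10.4 to 23.8 CPM elsewhere. In bulk tissue, fewer cells of a type and less RNA per cell cannot be told apart, so these sums do not give a share of cells.

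Counts of the set in the other libraries were low or 0. Of the 66 genes, 8 had 0 counts in all 8 other libraries: SPINK8, CRISP1, LOC101103666, METTL7B, WFDC13, RNASE11, AGR2 and PATE3. At most 3 counts were found in every other library for 34 genes, and at most 10 counts for 54 genes. Between 27 and 40 of the 66 genes had at least 1 count in each other library, and the highest other value exceeded 1 CPM for 12 genes and 5 CPM for 2, CD52 and LOC101111569.

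The same rule was applied with each of the other 8 libraries in the place of 12-month ram 1, and it kept 0 genes in every one. In 12-month ram 1, a further 40 genes of at least 10 CPM were 20 to 50 times, 59 were 10 to 20 times and 94 were 5 to 10 times the highest other value. In the other libraries no gene reached 20 times, at most 1 gene (in 2-month ram 3) lay between 10 and 20 times, and at most 4 lay between 5 and 10 times. The limit of 50 times therefore divides a continuous range of genes in 12-month ram 1. The members nearest to the limit were SLC5A12, a lactate transporter (53.6 times), BPI, a protein that binds bacterial endotoxin (54.0 times), and LOC101118459, which RefSeq names KRT14 (55.7 times). Just outside were the calpain family member CAPN6 (45.5 times), the insulin receptor substrate IRS4 (44.7 times) and LOC101119731 (44.5 times).

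The members were sorted into groups by their known roles after their values had been seen. CPM is not corrected for transcript length, so levels of different genes within a library are only roughly comparable.

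The largest group held 14 genes of proteins found on sperm or in the duct lumen, which summed to 6319 CPM in 12-month ram 1. CD52, a short glycosylphosphatidylinositol-anchored glycoprotein of lymphocytes and of epididymal epithelium that is acquired by sperm, was the most abundant member at 4573 CPM. In the other libraries CD52 had 7.95, 25.4 and 30.4 CPM at 2 months, 12.9, 6.31 and 4.82 CPM at 6 months, and 7.70 and 19.0 CPM in 12-month rams 2 and 3. Every ram thus had measurable CD52, and 12-month ram 1 had 325 times the pooled level of the others (306 to 345). Leukocyte genes were measured because CD52 is also a lymphocyte gene. Of the 10 listed, 1 was highest in 12-month ram 1. PTPRC and CSF1R had 15.9 and 48.5 CPM there and up to 116 and 82.1 CPM in the others. The part of leukocyte RNA in the CD52 level was not tested. RNASE12, RNASE13 and RNASE11, genes of the ribonuclease A family, had 215, 138 and 32.9 CPM in 12-month ram 1 and at most 3.63, 0.830 and 0 CPM elsewhere. PATE3, which lies near PATE1, had 21.02 CPM and no counts in the other rams. The group also held MUC15, a membrane mucin (29.3 CPM), PLA1A, a phosphatidylserine phospholipase (32.1 CPM), the colipase-like gene LRCOL1 (25.6 CPM), GC, the vitamin D binding protein (14.0 CPM), and C24H16orf89 (212 CPM).

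Protease inhibitors and host defence genes numbered 8 and summed to 1024 CPM. SPINK8, a Kazal-type serine protease inhibitor, had 224 CPM in 12-month ram 1 and 0 counts in every other library, which is at least 6068-fold higher. WFDC8 at 312 CPM was accompanied by the other WAP-domain genes WFDC2, first described as an epididymal protein, at 93.4 CPM and WFDC13 at 46.4 CPM. Outside 12-month ram 1, WFDC2 did not exceed 0.310 CPM and WFDC13 had 0 counts. SERPINA1, which inhibits elastase, had 67.9 CPM against at most 0.579 CPM. The beta-defensins DEFB129 and LOC101110079, named DEFB115 in RefSeq, had 64.5 and 127 CPM against at most 0.102 and 0.366 CPM. BPI had 89.6 CPM in 12-month ram 1 and between 0.504 and 1.66 CPM in all other libraries, the steadiest low level among these 8 genes.

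Genes of membrane transport and small-molecule binding also numbered 8 and summed to 1268 CPM, of which AQP9 was 618. LOC101107781, named ABCB5 in RefSeq and a member of the ATP-binding cassette transporters, had 217 CPM and at most 0.388 CPM elsewhere. SLC44A4, a choline transporter-like protein, had 137 CPM, and SLC46A2 had 122 CPM. SLC3A1, the heavy subunit of a transporter of cystine and dibasic amino acids, had 87.8 CPM against at most 1.06 CPM. SLC26A3, which exchanges chloride for bicarbonate, had 48.5 CPM in 12-month ram 1 and 4 counts in all other rams together. SLC5A12 had 24.5 CPM, and FABP6, a bile acid binding protein of enterocytes, had 13.6 CPM, the lowest of the 66 genes.

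The 4 ectoenzymes act on nucleotides, dipeptides or phosphate esters outside the cell. ENTPD3, which removes phosphates from extracellular nucleotides, had 263 CPM in 12-month ram 1 and 0.366 to 1.07 CPM in the others. ENPP3, a nucleotide pyrophosphatase, had 133 CPM against at most 2.22 CPM, in 6-month ram 1. CNDP1, a carnosine dipeptidase, had 36.5 CPM. ACPP, an acid phosphatase best known from the prostate, had 14.3 CPM and 1 count in all other libraries together.

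Epithelial structure was represented by 11 genes with a sum of 1278 CPM. PROM2, a prominin of plasma membrane protrusions in epithelial cells, had 453 CPM in 12-month ram 1. Its other values were 0.291, 0.726 and 0.806 CPM at 2 months, 0.386, 0.183 and 0.615 CPM at 6 months, and 0.464 and 1.76 CPM in 12-month rams 2 and 3, all far below. KRT7, a keratin of simple epithelia, had 212 CPM against 0.289 to 3.32 CPM. The tight junction claudins CLDN7, CLDN8 and CLDN4 had 134, 87.4 and 20.3 CPM, with at most 1.66, 0.102 and 0.310 CPM elsewhere. RAB25, a small GTPase of apical recycling, had 30.3 CPM, the transglutaminase TGM5 129 CPM, the adhesion molecule NRCAM 137 CPM and KRT24 35.3 CPM. LOC101117682 and LOC101118459, which RefSeq names KRT15 and KRT14, had 17.2 and 23.1 CPM. The table holds a second row under the name KRT14, at 4.85 CPM in 12-month ram 1, so the counts of these 2 rows are uncertain where reads could be split between them.

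Of the remaining members, 6 were intracellular enzymes, 6 were nuclear factors or signalling proteins and 9 were given no role. The enzymes included SPTSSB, a small subunit of serine palmitoyltransferase (61.1 CPM), METTL7B (53.6 CPM, with 0 counts elsewhere), TAT, the tyrosine aminotransferase (50.7 CPM), the glutathione peroxidase GPX2 (33.8 CPM) and AGR2, a protein disulfide isomerase of secretory epithelia (21.4 CPM, with 0 counts elsewhere). HOXB6 and HOXA10, homeobox genes of the trunk and of the reproductive ducts, had 76.7 and 30.3 CPM against at most 0.518 and 0.310 CPM. ELF3, an epithelium-specific ETS factor, had 23.7 CPM and 1 count in all other libraries together. MC4R, a melanocortin receptor best known from the hypothalamus, had 41.0 CPM and also 1 count elsewhere. Among the genes without a role, LOC101111569 had 1469 CPM, the second highest of the set. In the other rams it had 7.37, 1.35 and 2.01 CPM at 2 months, 7.33, 8.41 and 7.89 CPM at 6 months, and 12.3 and 1.45 CPM in 12-month rams 2 and 3. Its level in the other rams was lowest in the same 3 libraries in which CD52 was highest, which were also the 3 libraries with the lowest summed spermatid level.

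**Figure D2:**
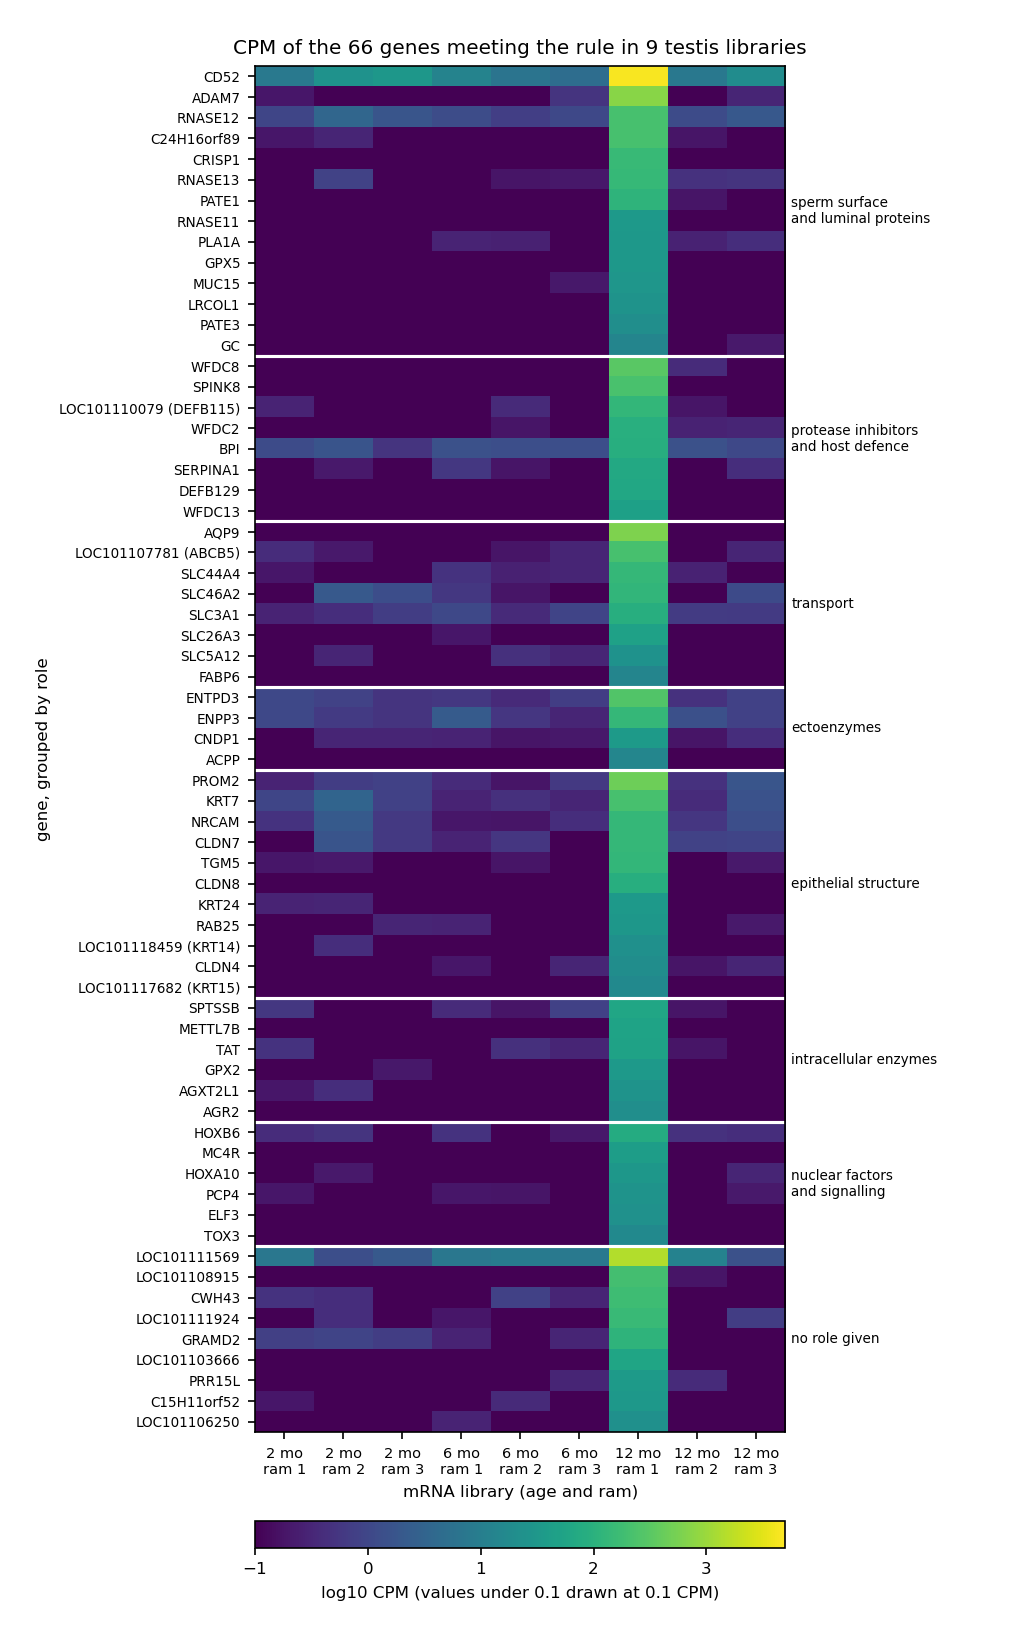
Rows are the 66 genes grouped by role, columns are the 9 mRNA libraries, and colour gives log10 CPM with values under 0.1 CPM drawn at 0.1. The column of 12-month ram 1 lies between 13.6 and 4573 CPM in every row, and CD52 and LOC101111569 are the only rows that exceed 5 CPM in any other column.

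Of the 66 genes, 56 were matched to a RefSeq gene of the assembly ARS-UI_Ramb_v3.0, which was used for names and gene order only, since the counts were made on another build. Close neighbours among the matched members, with at most 4 genes between them, formed 7 pairs. RNASE12 and RNASE11 lay next to each other, as did MUC15 and SLC5A12. PATE1 and PATE3 had 1 gene between them, as had WFDC2 and WFDC8. The keratin pair KRT15 and KRT14 had 2 genes between them, and DEFB129 and DEFB115 had 3, as had SLC26A3 and NRCAM. In 5 of these pairs both genes belong to the same gene family. Members of a family share sequence, and how reads with several matches were counted is not given in the sources used here.

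Of the 66 members, 26 were on at least 1 of the 21 lists of epididymal, epithelial and other cell type genes, and 40 were on none. Lists were matched by row name. The members that RefSeq names DEFB115, KRT14 and KRT15 have LOC row names and were counted as on none, although these names are listed. The other genes of these lists, which the rule did not keep, showed how far the pattern extended. The background for the comparison was that 2657 of 19233 genes, 13.8%, had their highest level of all 9 libraries in 12-month ram 1. These genes were still read in the library that chose the members, so the counts are a description.

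Of the genes for sperm surface and secreted proteins of the epididymis, 22 of 32 were in the table, 10 were members and 4 of the other 12 were highest in 12-month ram 1. These 4 were RNASE4 (33.7 CPM against at most 21.9), PATE2 (6.24 against 0.205), CRISP3 (4.39 against 0.104) and EDDM3B (4.16 against 0.104). CLU, a secreted chaperone of Sertoli cells and epididymis, had 2336 CPM in 12-month ram 1 and 2120.1 to 17092 CPM elsewhere. CRISP2, the testicular relative of CRISP1, had 455 CPM in 12-month ram 1 and up to 716 CPM elsewhere. GPX6 had 0 counts in 12-month ram 1, and ELSPBP1, a sperm-binding protein of the epididymis, had 3.003 CPM there against 11.2 CPM in 2-month ram 1. The remaining genes of this list, CLU and CRISP2 among them, were thus not highest there. Summed over the 12 non-members, the level in 12-month ram 1 was 3160 CPM, below the 3500 to 17299 CPM of the other libraries. CLU made up much of this sum.

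Of 28 protease inhibitors in the table, 5 were members and 7 of the other 23 were highest in 12-month ram 1. SPINT1, an inhibitor of membrane serine proteases in epithelia, had 52.7 CPM against at most 4.66 CPM, and SERPINF1 had 45.0 against 12.1 CPM. EPPIN and SERPINA5, which Sertoli cells and the epididymis both make, had 217 and 441 CPM in 12-month ram 1, the lowest of all 9 libraries for each. CST11 had no counts in any library. Over the 23 non-members the sum was 1896 CPM in 12-month ram 1, below the 2665 to 7107 CPM of the other libraries. Of the 7 listed beta-defensins matched by row name, DEFB129 was a member. LOC101110079, the member that RefSeq names DEFB115, was not counted among the 7. DEFB116, DEFB124 and DEFB127 were highest in 12-month ram 1, at 6.93, 4.74 and 0.809 CPM. DEFB119 and DEFB123 had their lowest level there, at 17.8 and 13.6 CPM. The 6 listed beta-defensins besides DEFB129 summed to 43.9 CPM there, below the 55.3 to 157 CPM elsewhere. Only 3 of 13 listed lipocalins were in the table, and LCN2 at 1.39 CPM was the one highest in 12-month ram 1. The 3 together had 34.5 CPM there, within the 11.5 to 50.3 CPM elsewhere.

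Many epithelial junction and keratin genes besides the members were highest in this library. Of 42 in the table, 6 were members and 27 of the other 36 were highest in 12-month ram 1, with a sum over these 36 of 2183 CPM against 621 to 1008 CPM. KRT8, KRT19 and KRT18 had 204, 109 and 50.01 CPM against at most 4.85, 2.996 and 2.62 CPM. CDH1, the epithelial cadherin, had 61.3 CPM against at most 8.44 CPM, and the desmosomal genes DSP and DSG2 had 286 and 51.9 CPM against at most 130 and 18.3 CPM. ST14, a membrane serine protease of epithelia, had 116 CPM against at most 4.25 CPM. CGN and PROM1 were not among the 27, with 43.9 and 204 CPM in 12-month ram 1 and up to 167 and 280 CPM in others.

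Of 24 epithelial transcription and splicing factors besides ELF3, 9 were highest in 12-month ram 1. PAX8, a factor of kidney, thyroid and excurrent duct epithelia, had 266 CPM there and 2.79 to 37.6 CPM elsewhere. GRHL2 had 27.4 against at most 1.14 CPM, EMX2 27.6 against 1.97 CPM, and the splicing regulators ESRP1 and ESRP2 had 58.8 and 32.6 against at most 29.9 and 10.3 CPM. ESR1, the oestrogen receptor that the efferent ducts need for fluid reabsorption, had 35.7 CPM against at most 4.87 CPM. EHF had 265 CPM in 12-month ram 1 and 371, 397 and 314 CPM in the 6-month rams, so it did not mark this library.

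Of the 38 water, ion and acid-base transport genes that were not members, 10 were highest in 12-month ram 1. LRP2, the endocytic receptor megalin, had 280 CPM against at most 80.5 CPM, SCNN1A, a subunit of the epithelial sodium channel, had 36.3 against 2.59 CPM, and AQP1 had 8.89 against 2.27 CPM. CFTR, the chloride channel, had 5.78 CPM and was higher in 2-month ram 2, at 11.4 CPM. Genes of clear and narrow cells gave no uniform picture. ATP6V1C2, a subunit of the proton pump, had 94.5 against at most 6.31 CPM and SLC26A4 had 5.31 against 0.278 CPM, but the other 8 of the 10 genes were not highest in this library. Their defining factor FOXI1 had 1.39 CPM, and the pump subunits ATP6V1B1 and ATP6V1G3 had 0 counts there. Of 6 basal cell genes matched by row name, 4 were highest in 12-month ram 1. The members that RefSeq names KRT14 and KRT15 were not counted among the 6. KRT5 had 31.5 against at most 1.45 CPM and the row named KRT14 had 4.85 against 0.207 CPM. TP63, the basal cell regulator, had 3.81 against 1.76 CPM.

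Other ducts and glands were measured in the same way. Of 16 listed genes of seminal vesicle, ampulla and prostate, 4 were in the table, and apart from ACPP none was highest in 12-month ram 1. MSMB, a secreted protein of the prostate, had 1.27 CPM there, the lowest of all 9 libraries. Of 8 genes of motile cilia, which the efferent ducts carry on part of their cells, CAPS and CCNO were highest in 12-month ram 1, at 9.12 and 2.89 CPM, while FOXJ1 at 6.58 CPM was within the range of the other rams. Because spermatids also express genes of motile cilia, this list does not separate the efferent ducts from germ cells. Of 6 listed genes of red blood cells, only the haemoglobin gene HBM and ALAS2 were in the table, and these 2 had no counts in any library. The other listed haemoglobin genes, such as HBB, were absent, so this list does not measure blood RNA.

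Genes of smooth muscle were high in the same library. Of 10 genes of smooth muscle and peritubular cells, 9 were highest in 12-month ram 1, with a summed level of 6942 CPM against 336 to 2397 CPM in the other 8 libraries. ACTA2, the smooth muscle actin, had 2360 CPM in 12-month ram 1, 182, 869 and 626 CPM at 2 months, 223, 112 and 148 CPM at 6 months, and 278 and 795 CPM in 12-month rams 2 and 3. ACTG2, an actin of visceral smooth muscle, had 809 CPM against at most 59.3 CPM, DES, the muscle intermediate filament, 458 against 66.2 CPM and MYH11, the smooth muscle myosin, 1848 against 733 CPM. SMTN was the exception, with 89.98 CPM in 12-month ram 1 and 92.4 CPM in 2-month ram 2.

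Genes of testis cells were not highest in 12-month ram 1, with 1 exception. None of the 11 Sertoli cell genes and none of the 8 Leydig cell genes was highest there, and their sums of 360 and 87.0 CPM lay below the other libraries, at 389 to 2220 and 133 to 889 CPM. CLDN11, the claudin of the Sertoli cell barrier, had 77.4 CPM against 65.7 to 591 CPM, and INSL3, a Leydig cell hormone, had 36.3 CPM against 29.6 to 551 CPM. Of 19 genes of spermatogonia and spermatocytes, GFRA1 was highest in 12-month ram 1 (12.2 CPM) and 9 were lowest there, with a sum of 1469 CPM within the range of 1089 to 2534 CPM. None of the 19 spermatid genes was highest there. The leukocyte and endothelium lists, at 88.8 and 132 CPM, lay within the ranges of 38.7 to 247 and 32.0 to 158 CPM. Highest in 12-month ram 1 were 1 of 10 leukocyte genes and 2 of 4 endothelium genes. The part of smooth muscle, Sertoli cell or Leydig cell RNA in the levels of the 66 genes was not tested.

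**Figure D3:**
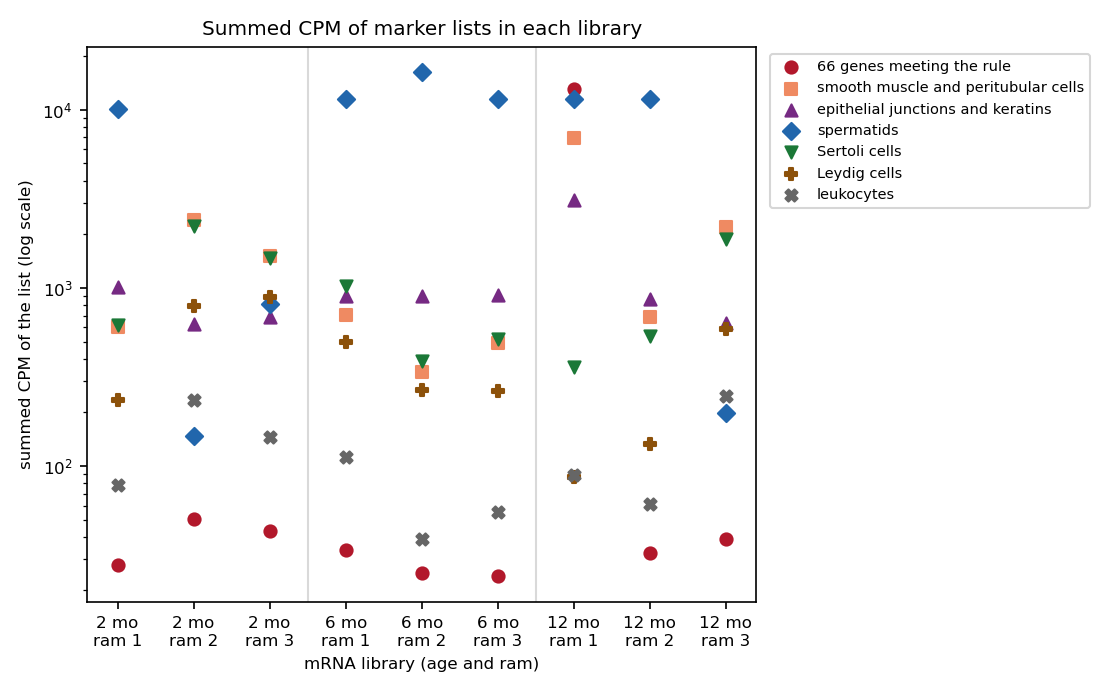
Points give the summed CPM, on a log scale, of the 66 genes and of 6 cell type lists in each of the 9 mRNA libraries, ordered by age and ram. In 12-month ram 1 the 66 genes reach 13057 CPM against at most 50.6 CPM, the smooth muscle list is at 6942 CPM, the spermatid list is close to that of 12-month ram 2, and the Sertoli and Leydig cell lists are at their lowest.

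The contrast of 2 with 6 months did not involve 12-month ram 1 and was tested with edgeR's quasi-likelihood test on the counts of all 9 libraries. After the filter on low counts, 14921 genes were tested. With a Benjamini-Hochberg adjusted p under 0.05 and a change of over 1.5-fold both required, 0 were called, a share of 0%. The labelled ages mixed spermatid levels. At 2 months, ram 1 had a sum of 10065 CPM against 147 and 817 CPM in rams 2 and 3. At 12 months, ram 3 had 198 CPM against 11473 and 11479 CPM in rams 1 and 2. The counts of 0 genes here and below thus do not show that the ages are alike. At an unadjusted p under 0.05 there were 608 genes, 4.07%, and DESeq2 called 9 (0.0515%). This number of genes rested on single rams and ran from 110 without 2-month ram 2 to 3813 without 2-month ram 1. Of the 66 members, 8 passed the filter: CD52, LOC101111569, RNASE12, KRT7, NRCAM, ENPP3, SLC46A2 and BPI. When only the 6 libraries of these ages were fitted, 4 members passed it, so the others entered through the 12-month group. The rule also held all members low in both ages, so their values in this contrast are a description, and none of the 8 reached an unadjusted p under 0.05. The log2 fold change of 6 over 2 months was -1.80 for KRT7 (SE 2.08, edgeR adjusted p = 0.614) and -1.01 for CD52 (SE 1.81, adjusted p = 0.732), against 1.33 for LOC101111569 (SE 1.87, adjusted p = 0.667). The SE comes from 1 spread shared by all ages, which includes 12-month ram 1. Fitted without that library, KRT7 had a log2 fold change of -1.81 at an unadjusted p of 0.0341 by edgeR and an adjusted p of 0.570.

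In the contrasts that hold 12-month ram 1, edgeR called 0 genes as well, with 1025 (6.87%) at an unadjusted p under 0.05 between 6 and 12 months and 399 (2.67%) between 2 and 12 months. With 1 ram left out, the former ran from 288 (without 6-month ram 2) to 2329 (without 12-month ram 2) and the latter from 145 (without 12-month ram 1) to 1636 (without 2-month ram 1). DESeq2 called 3 (0.0172%) and 1 (0.00572%). No member was among the calls of either tool. For all 66 members DESeq2 returned no p-value in any of the 3 contrasts, so these genes cannot be listed by that test whatever their size of difference. For the 8 members that passed the filter, edgeR gave log2 fold changes of 4.38 to 7.53 in these 2 contrasts, given as a description since the library chose the genes. Fitted without 12-month ram 1, their values in these contrasts lay between -1.08 and 1.45, and 0 of 8 reached an unadjusted p under 0.05 in either contrast. As the rule chose genes that were low in all other rams, these values are a description too.

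The miRNA libraries of the same 9 testes were separate libraries and had no part in choosing the genes. A corresponding rule, at least 100 CPM in the miRNA library of 12-month ram 1 and at least 50 times the highest of the other 8, each set to its level of 3 counts where lower, kept 6 of 7146 listed mature miRNAs. With each of the other 8 miRNA libraries in that place it kept 0. The total miRNA count was 1400436 in 12-month ram 1 and 295282 to 5710499 overall. The 6 entries and the 2 nearest epithelial miRNAs that fell short of 50 times are shown as the table gives them, 5′ to 3′ with T for U, with the seed, bases 2 to 8, in capitals.
rno-miR-182: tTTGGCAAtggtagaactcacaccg
rno-miR-183-5p: tATGGCACtggtagaattcact
rno-miR-96-5p: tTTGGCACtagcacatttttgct
rno-miR-3553: cAGTGAATtctaccagtgccata
rno-miR-205, entry predicted from the genome: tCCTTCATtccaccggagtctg
chrx_43094_mature: aAAAACCTgaaggaacttt
chrx_42700_mature and chr10_18764_mature: aAAAAGTTtgttcgagttt

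The miRNAs miR-182, miR-183 and miR-96 are encoded together as a cluster and are known from sensory and other epithelia. Entries named after rat miRNAs held sheep reads that matched a rat sequence. The entry rno-miR-182 had 2509 CPM in 12-month ram 1, 8.69, 7.22 and 5.14 CPM at 2 months, 11.6, 15.3 and 3.39 CPM at 6 months, and 6.60 and 12.1 CPM in 12-month rams 2 and 3. All 8 other rams were thus at least 164 times lower. The entry rno-miR-183-5p had 1360 CPM against at most 16.9 CPM, and rno-miR-96-5p had 1688 CPM against at most 37.3 CPM, or 45.3 times. The rno-miR-205 entry predicted from the genome, a miRNA of stratified and basal epithelia, had 2127 CPM against 59.4 CPM in 12-month ram 2 and at most 9.72 CPM in the rest.

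The other 4 of the 6 entries are less certain. The 23 bases of rno-miR-3553 contain the reverse complement of the 22 bases of rno-miR-183-5p, and in 12-month ram 1 the former had 1912 counts and the latter 1904, so the strand or origin of these reads cannot be told from the table. The entries chrx_42700_mature and chr10_18764_mature are predictions with the same sequence, at 1075 and 1026 CPM against at most 10.2 and 2.20 CPM. The prediction chrx_43094_mature had 2325 CPM against at most 12.5 CPM. None of these 3 predictions was matched to a named miRNA in the table.

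Of the 16 epithelial miRNA names listed, all had entries, and 15 entries had at least 100 CPM in 12-month ram 1. In 12 of these 15 the level was the highest of the 9 miRNA libraries, against 59 of 322, 18.3%, of all miRNAs of at least 100 CPM there. The names were chosen with earlier results of these data known, so this count is a description. The entries are also not separate observations, since oar-miR-200b and rno-miR-200b-3p share a name and miR-182, miR-183 and miR-96 share a cluster. Among the 12 were oar-miR-200a at 21239 CPM, oar-miR-200c at 4341 CPM and oar-miR-200b at 6331 CPM, against at most 1880, 576 and 383 CPM, each in 6-month ram 3. The rno-miR-192-5p entry and oar-miR-194, miRNAs of gut and kidney epithelium, were highest in 6-month ram 3 (5571 and 1592 CPM, against 3870 and 1427 CPM in 12-month ram 1), and rno-miR-375-3p was highest in 6-month ram 2. With 1 ram of 9 highest, the smallest one-sided p by an exact permutation test is 0.111 for any single miRNA, which cannot pass 0.05.

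**Figure D4:**
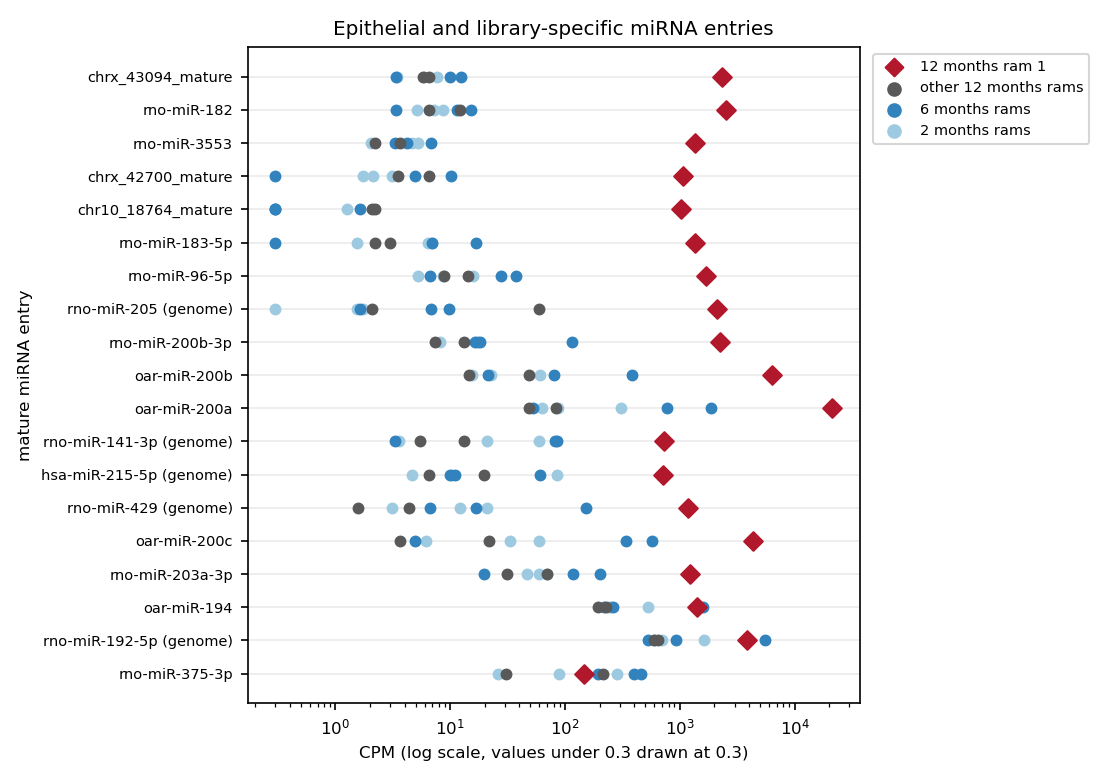
Each row is a mature miRNA entry and each point a miRNA library, with CPM on a log x axis and values under 0.3 CPM drawn at 0.3, and entries predicted from the genome are marked so. Red diamonds for 12-month ram 1 lie between 708 and 21239 CPM to the right of all other rams in every row except the lowest 3, oar-miR-194, rno-miR-192-5p and rno-miR-375-3p.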

How the data were processed

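Counts of mRNA and mature miRNA in 9 testes (1 library of each kind per ram, 3 rams per age) were taken as the authors deposited them, as whole-number counts without normalization. Per the labels, the genome build was Oar_v3.1 and BWA was among the tools. According to the methods, miRNA reads were mapped to sheep miRBase, then to the genome and then to human, rat and mouse miRBase. The aligner and counter of the mRNA reads are not given in the sources used here, nor is strand. Every value column was tied to a sample, with 0 left over. Ages and ram numbers came from the library titles.

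CPM was the count over the column total of genes of type mRNA (or of all miRNAs) per 1000000 counts. The members, lists and miRNA names were chosen with earlier results of these data known. Genes named were the 6 markers, the 10 highest members, the 3 genes on either side of the 50-fold limit, and the listed miRNAs. From each testis list up to 4 genes were named. From each other list, members and non-members with the most CPM within 12-month ram 1 were named, whether or not another library was higher. Further members and list genes were named after their values were seen. A planned ranking of genes by correlation over the other 8 libraries was not used, because these fall into groups of high and low spermatid level. Differences between ages were tested in R 4.3.3 with edgeR 4.0.16 (TMM scaling, filter by age, quasi-likelihood test, all 9 libraries). DESeq2 1.42.0, other scalings, no filter, only the libraries compared, the replicate number as a block, and each ram left out were alternatives. The test was run on simulated counts with known changes. These counts did not hold the mixed spermatid levels within an age, so that run does not show how well the test works here. Exact Clopper-Pearson and Wilson intervals (95%) came from scipy 1.17.1, with numpy 2.4.6, pandas 2.3.3 and matplotlib 3.10.9 in Python 3.11.15. Intervals and limits cover counting error only, because reads were amplified without molecular identifiers. No sequence of the genes themselves and no coordinates were used here. Some genes of the lists are not reported here.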

Additional observations from a re-analysis of the deposited data

Results flagged for a closer look

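Outside the genes of type mRNA, the table held 3911 rows of other gene types, which entered no comparison above. LOC101107086, a non-coding RNA, was the 1 such row that met the rule of the 66 genes, with 179 counts or 20.7 CPM in 12-month ram 1 against at most 0.403 CPM in the other 8 libraries, or 51.3 times. With each of the other libraries in the place of 12-month ram 1, 0 such rows met it. The value stood out because it lay in data outside the mRNA rows and above its level in every other ram.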

How the results depend on the processing

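The rule kept between 54 and 75 genes at a minimum of 5 CPM (70) or 20 CPM (61), at a floor of 0.5 CPM (54), with totals over all rows (66) and with TMM scaling (75, including 65 of the 66, all but SLC5A12), and TMM raised 12-month ram 1 by 0.13 (log2) against the pooled other libraries. At 100 times it kept 46 and at 20 times 106. Leaving out 1 of the other 8 libraries gave 66 to 71 genes. Leaving out 2-month ram 1 and 12-month ram 3, chosen after seeing the data, gave 72. These counts could not fall below 66, since fewer other libraries can only lower the highest other value. The rule needs 12-month ram 1, so that ram was not left out. The miRNA rule kept 10 miRNAs at 20 times, 8 with upper-quartile scaling, and 6 to 10 with 1 library left out, with 10 reached without 6-month ram 3. The upper-quartile scaling was coarse, with effective library sizes of only 438688, 877376, 1754751 or 3509503 counts. DESeq2 called 9 genes between 2 and 6, 3 between 6 and 12 and 1 between 2 and 12 months, and edgeR called 0 to 1 between 2 and 6 months with 1 ram left out, the 1 without 6-month ram 1. Of the 66 genes, 0 were called in every alternative. Deviations of rams with the same number correlated at -0.82 to 0.52 across ages, so the numbers, which name different animals, do not pair them. With the replicate block edgeR called 0 genes and 0 members in each contrast. In all, 129 of 136 alternative values stayed within 1.5 times the main count or within the counting interval. Many of these values had little or no room to move, so the tally does not measure stability. The counts of members called, 16 per contrast, were all 0, and in most of these fits few or no members had a test. Other totals change all ratios by 1 common factor. Depth limits the ratios, since 34 of the 66 genes had at most 3 counts in any other library.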

Other observations

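Homeobox genes of the HOX clusters, looked at after the values of HOXB6 and HOXA10 had been seen, were often highest in 12-month ram 1. Of 37 HOX genes in the table, 26 had their highest level of all 9 libraries there, against 13.8% of all genes of type mRNA, and 18 had at least 10 CPM. HOXB8 had 33.8 CPM against at most 0.933 CPM, HOXB9 22.9 against 0.640 CPM, HOXA5 21.1 against 1.14 CPM and HOXA9 19.2 against 1.14 CPM. HOXD8, with 44.0 CPM in 12-month ram 1, was also measurable in all other rams, at 8.99 to 25.7 CPM. HOXA11, HOXA13, HOXB13 and HOXD13, genes of the caudal end of the clusters, had 0 counts in 12-month ram 1. They were near 0 in the other rams too, at most 0.726, 0.186, 0.102 and 0.302 CPM, so these zeros do not set 12-month ram 1 apart. HOXC13 and HOXD11 had 1.04 and 0.809 CPM in 12-month ram 1 and up to 8.37 and 1.24 CPM elsewhere.

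Genes of androgen and lipid metabolism known from the epididymis did not move as a group. Of 15 in the table, 7 were highest in 12-month ram 1 and 4 were lowest there. ELOVL7, which elongates fatty acids, had 44.1 CPM against at most 1.74 CPM and SRD5A1, a steroid reductase, 19.8 against 7.78 CPM. GSTA1, a glutathione transferase, and FABP5, a fatty acid binding protein, had 23.9 and 23.7 CPM in 12-month ram 1 and 51.6 to 273 and 44.6 to 175 CPM in the other rams. SRD5A2, the reductase best known from the epididymis and prostate, had 1.502 CPM in 12-month ram 1 and at most 0.201 CPM elsewhere.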
